A study of Glycine max with 54 samples.

Results

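P746 is a soybean genotype with antibiosis, the form of host resistance in which the plant impairs the growth or reproduction of the insect that feeds on it. The comparison described here set 3 RNA-seq libraries of P746 leaves infested with the soybean aphid, Aphis glycines, against 3 libraries of mock-treated P746 leaves, all harvested at 96 h after infestation (HAI). These are 6 of the 54 libraries of a series that also holds the susceptible cultivar Dongnong47 and the antixenotic genotype P203, which deters aphids from settling, with mock and infested leaves at 24, 48 and 96 HAI and 3 libraries in each group. For infestation, 6 aphids were placed on each leaflet of a trifoliolate and held there in cages, and the mock-treated seedlings carried the same cages without aphids. Only the caged leaf area was harvested.

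The soybean aphid is a phloem feeder that inserts its stylets between cells and draws sap from sieve tubes, with little of the tissue loss that chewing insects cause. Plants answer insects and pathogens through the hormones jasmonic acid (JA) and salicylic acid (SA), which restrain each other in many species. JA is built from polyunsaturated fatty acids by lipoxygenases and later enzymes, and JAZ proteins hold its response genes silent until the hormone removes them. SA arises through isochorismate synthase or phenylalanine ammonia-lyase, and in Arabidopsis the proteins EDS1, PAD4 and NPR1 raise its level or carry its signal.

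Genes were taken by identifier from chromosomes 1 to 13 alone, since many genes of chromosomes 14 to 20 had no value in the 96 HAI mock libraries. Of the 32958 genes of chromosomes 1 to 13 with a value somewhere in the series, 30256 had a value in these 6 libraries, and 23094 passed the filter on low counts and were tested. Levels are given as CPM, counts relative to the library size, scaled by TMM factors over the genes fitted. A gene was called when its Benjamini-Hochberg adjusted p from edgeR's quasi-likelihood test was under 0.05 and its log2 fold change was at least 1 in size. The identifiers in the files carry no descriptions, so names and roles are given only for genes in the study's own lists of transcription factors, JA- and SA-related genes, callose synthases and catalases, and the leaf identity of the samples could not be checked against marker genes.

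The libraries held 17616740 to 19273325 estimated counts each, and the arms differed in several measures apart from infestation. Chromosomes 1 to 13 took 82.1 to 86.7% of the counts in the mock libraries and 68.1 to 76.2% in the infested libraries. Of the genes of chromosomes 14 to 20 that are abundant elsewhere in the series, 31.2 to 48.2% had no value in a mock library and 2.17 to 17.4% in an infested library, whereas on chromosomes 1 to 13 at most 0.159% lacked one. The identifiers of loci that the authors' pipeline assembled outside the annotation were nearly disjoint between the arms. A median of 1.74% was shared between a mock and an infested library, against 71.3% among the mock and 55.8% among the infested libraries. The infested libraries shared a median of 54.0% of these identifiers with the uninfested P746 leaves of 48 HAI. The identifiers were compared by name alone, so whether the loci themselves differed was not tested. In this design the aphids and the set of libraries cannot be told apart.

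The genotype label was checked with 85 genes that separated P203 from P746 in the uninfested leaves of 24 HAI. At 96 HAI, 96.5 to 98.8% of them were at the P203 level in the libraries labelled P746 mock, the same range as in the libraries labelled P203 mock, and 70.6 to 95.3% in the libraries labelled P746 infested. The libraries labelled P746 mock at 48 HAI also held the P203 level, at 91.8 to 96.5% of them. Another 85 genes separated Dongnong47 from P203, and the libraries labelled P746 infested held the Dongnong47 level at 4.71, 35.3 and 27.1% of them, against 1.18 to 3.53% in those labelled P746 mock. Infested replicates 2 and 3 therefore stood nearer to Dongnong47 on these genes than the mock libraries did. The P746 mock libraries of 24 HAI held the Dongnong47 level at 40.0 to 44.7% of the same genes, and those of 48 HAI at 2.35 to 7.06%. On 123 genes that separated Dongnong47 from P746, the 96 HAI infested libraries held the Dongnong47 level at 48.8, 60.2 and 54.5%. The 96 HAI mock libraries held it at 45.5 to 53.7%. Which genotype the infested libraries lay toward, and the part of this in the results below, was not tested. The name P746 is used here as the label gives it.

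After 96 h, 117 of the 23094 tested genes differed between infested and mock leaves, or 0.507%. Of these, 74 rose (0.32% of all tested genes) and 43 fell (0.186%). The 3 infested values did not overlap the 3 mock values in 6664 genes (28.9% of those tested), of which 3300 were higher and 3364 lower in infested leaves, so separation of the groups alone was common on both sides. In the plot of all tested genes, calls were made at low and high levels alike. The number of calls rested on single libraries, with 0 genes called by edgeR without mock replicate 2 or mock replicate 3 (2717 and 2816 at an unadjusted p under 0.05, against 4941 with all libraries), 94 without mock replicate 1, and 11, 19 and 78 without infested replicates 1, 2 and 3. DESeq2 called 2299 genes on the same libraries, among them all 117.

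**Figure D1:**
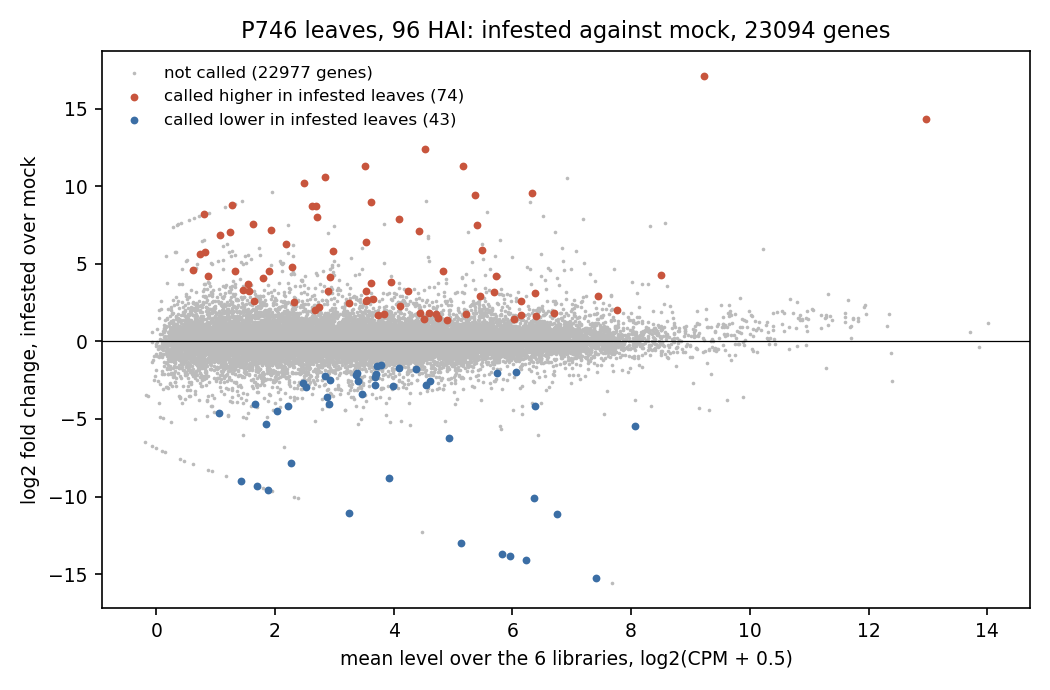
Mean level over the 6 libraries, as log2(CPM + 0.5), against the fitted log2 fold change of infested over mock leaves for each of the 23094 tested genes of P746 at 96 HAI. The 74 genes called higher (red) and the 43 called lower (blue) are spread over the range of levels, with grey genes that were not called at fold changes of like size, and fitted values far from 0 belong to genes with almost no counts in 1 arm.

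Of the 74 genes that rose, 37 were close to silent in the mock leaves. The mock libraries held no count at all for 7 of them, 1 to 3 counts over the 3 libraries for 11, and under 1 CPM in each library for another 19, and the other 37 were expressed at 1 CPM or more in at least 1 mock library. Among the 43 that fell, the infested libraries held no count for 9, 1 to 3 counts for 3 and under 1 CPM for 6, and 25 kept 1 CPM or more. A count of 0 was compared with a floor of 3 counts per library, or 0.174 CPM in mock and 0.262 CPM in infested leaves. An identifier absent from a library was taken as 0. The changes of those genes are therefore lower bounds only where absence means that no reads were counted, which was not tested.

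GLYMA08G08800 stood far above the other genes that rose. It measured 1.53, 0.721 and 0.155 CPM in the mock libraries and 22189, 15901 and 9718 CPM in the infested libraries, a log2 fold change of 14.31 ± 1.34 (SE, n = 3 per arm; edgeR adjusted p = 0.0292). Every infested library was thus above every mock library, and the gene moved from near the floor to the level of the most abundant transcripts tested. GLYMA09G07281 had no count in any mock library and reached 1284, 329 and 1985 CPM in the infested libraries, at least 6912-fold higher. In the same way GLYMA10G11557 went from 0 to 76.1, 26.1 and 33.1 CPM, GLYMA02G06500 from 0 to 19.7, 16.1 and 30.1 CPM, GLYMA11G02590 from 0 to 8.03, 19.5 and 12.6 CPM and GLYMA10G13710 from 0 to 7.71, 10.7 and 12.3 CPM. Their lower bounds were 259.8-fold, 127-fold, 77.1-fold and 59.0-fold.

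Genes with the strongest tests were likewise low in mock leaves and even among the infested replicates. GLYMA05G24876 measured 0.133, 0.388 and 0.361 CPM in mock and 41.0, 37.8 and 46.2 CPM in infested leaves (log2 fold change 7.09 ± 0.37, adjusted p = 0.00586 by edgeR). GLYMA02G15895 measured 0.133, 0.277 and 0.206 CPM against 109, 235 and 137 CPM (9.54 ± 0.51, adjusted p = 0.00586 by edgeR). GLYMA13G37461 rose from 0.864, 2.11 and 1.39 CPM to 88.0, 75.8 and 97.4 CPM and GLYMA13G30154 from 2.99, 2.05 and 1.96 CPM to 61.9, 41.1 and 57.6 CPM. In each of these genes the lowest infested library was far above the highest mock library. GLYMA07G18200 had 1 count in the mock libraries and 81.8, 88.3 and 41.6 CPM in the infested ones, and GLYMA01G42860, GLYMA03G05650, GLYMA01G33708 and GLYMA07G05811 had 1 to 6 mock counts in all and between 5.52 and 172 CPM per infested library.

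The genes that fell were led by a run of neighbouring identifiers on chromosome 13, from GLYMA13G11810 to GLYMA13G12025. This interval holds 57 identifiers with a value in the series. Of the 22 that were tested, 8 fell (0.186% of all tested genes did) and 0 rose, and in 15 all mock values were above all infested values (14.6% of all tested genes). GLYMA13G11860 measured 376, 514 and 129 CPM in mock leaves and had no count in any infested library, at least 1296-fold lower. GLYMA13G11992, GLYMA13G11975, GLYMA13G11977 and GLYMA13G11810 also had no infested count, with lower bounds of 570.2-fold, 469-fold, 429-fold and 266-fold. GLYMA13G12004 fell from 603, 707 and 267 CPM to 17.2, 7.21 and 12.1 CPM, GLYMA13G12025 from 209, 243 and 41.9 CPM to 0, 0.360 and 0 CPM, and GLYMA13G11973 from 36.8, 44.3 and 7.17 CPM to 0, 0.144 and 0 CPM. The interval was picked out after its values were seen, and mock replicate 3 was the lowest mock library for each gene named in it. Whether the counting split reads among similar copies here could not be checked. GLYMA13G11980, inside the same interval, went the other way, with 559, 562 and 121 CPM in mock and 2526, 1603 and 691 CPM in infested leaves, and was not called (adjusted p = 0.196 by edgeR).

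Elsewhere GLYMA05G38110 fell from 366, 152 and 123 CPM to 0.208, 0 and 0.0855 CPM, and GLYMA01G42840 from 33.7, 67.5 and 76.6 CPM to 0.208, 0.721 and 1.37 CPM (log2 fold change -6.22 ± 0.63, adjusted p = 0.0314 by edgeR). GLYMA05G07970 was steady in mock leaves at 18.3, 16.9 and 19.0 CPM and had no count in infested leaves, at least 69.0-fold lower, and GLYMA08G43266, GLYMA12G30253 and GLYMA09G30522 were also at 0, with bounds of 24.5-fold, 21.0-fold and 16.7-fold. GLYMA05G34760 fell in a graded way from 22.7, 19.97 and 22.3 CPM to 2.40, 2.74 and 4.19 CPM (-2.79 ± 0.28, adjusted p = 0.0314 by edgeR), and GLYMA02G14740 from 7.45, 6.27 and 7.01 CPM to 0.417, 0.216 and 0.256 CPM. In none of these genes did an infested library reach the lowest mock library.

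Levels in the other P746 leaves, on a scale fitted over all 54 libraries, showed where these genes stood without aphids at the earlier times. GLYMA08G08800 had a median of 8521 CPM in mock leaves of 48 HAI and 0.144 CPM in mock leaves of 24 HAI, so uninfested P746 leaves held it near the 96 HAI infested level at 48 HAI and near the 96 HAI mock level at 24 HAI. GLYMA05G07970 was at 0 in all 48 HAI libraries, mock and infested, and at a median of 12.7 CPM in 24 HAI mock leaves. The summed level of the 8 chromosome 13 genes had a median of 1629 CPM in 96 HAI mock leaves (564 to 2048), 11.1 CPM in 96 HAI infested leaves (7.20 to 15.9), 1.61 CPM in 48 HAI mock leaves and 124 CPM in 24 HAI mock leaves. The heat map of the called genes shows the 48 HAI columns, mock and infested, looking more like the 96 HAI infested columns than like the 96 HAI mock columns over most of its height.

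**Figure D2:**
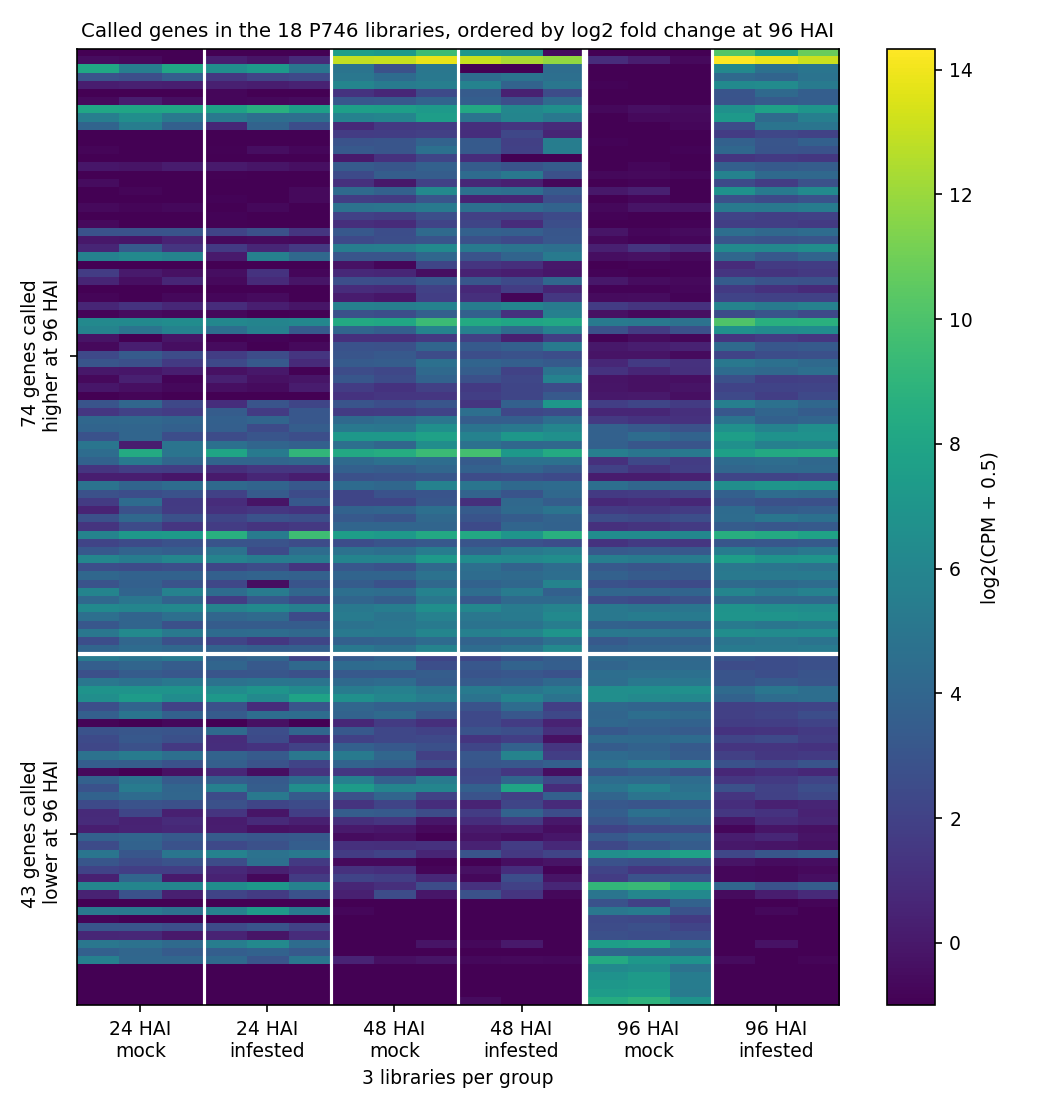
Level, as log2(CPM + 0.5) on a scale fitted over all 54 libraries, of the 117 called genes (rows, ordered by log2 fold change at 96 HAI, with the 74 higher genes above the white line) in the 18 P746 libraries (columns, 3 per group). Uninfested leaves of 48 HAI hold many of the genes near their level in the infested leaves of 96 HAI, such as GLYMA08G08800, the bright second row.

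The same genes were tested between 48 and 96 HAI in the mock leaves of the other genotypes, whose libraries take no part in the P746 comparison. In P203 mock leaves, 38 of the 70 tested genes among the 74 were called higher at 48 HAI than at 96 HAI, where 2.2% of all tested genes were, and 21 of the 43 genes that fell in P746 were called lower at 48 HAI, where 1.85% of all tested genes were. In Dongnong47 mock leaves the corresponding counts were 58 of 67 (9.37% of all tested genes) and 38 of 43 (10.6%), and 1 of the 74 was called the other way. Many of the genes that separated the P746 arms at 96 HAI thus also separated uninfested leaves of 48 and 96 HAI under both other genotype labels. Of the abundant chromosome 14 to 20 genes, P203 mock libraries lacked 15.4 to 47.5% at 96 HAI and 22.7 to 25.1% at 48 HAI. In Dongnong47 mock libraries the shares were 38.9 to 53.5% and 0.0824 to 12.2%. Time and the set of libraries cannot be told apart in these comparisons.

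A further 3 called genes had similar median levels in the P746 mock leaves of 48 and 96 HAI and are described for this, a choice made after their values were seen. All 3 were nevertheless called between Dongnong47 mock leaves of 48 and 96 HAI in the direction of the P746 comparison, and none was in P203 mock leaves. GLYMA05G23710, a transcription factor gene of the LSD family, named for an Arabidopsis zinc-finger protein that restrains cell death, measured 37.5, 44.3 and 41.9 CPM in mock and 130.2, 131 and 115 CPM in infested leaves (log2 fold change 1.62 ± 0.18, adjusted p = 0.0353 by edgeR). All 3 infested libraries lay close together above the mock libraries. Its medians on the scale of all libraries were 23.5 CPM at 24 HAI and 41.1 CPM at 48 HAI in mock leaves, and 16.2 and 38.3 CPM in infested leaves. Scaling by the total counts of chromosomes 1 to 13, an alternative chosen after seeing the data, ended this call, with a log2 fold change of 1.32 and an adjusted p of 0.0552 by edgeR.

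GLYMA07G06450 behaved alike, at 25.3, 17.3 and 16.6 CPM in mock and 103, 134 and 124 CPM in infested leaves (2.62 ± 0.25, adjusted p = 0.0292 by edgeR). Its medians were 20.7 and 20.3 CPM in mock leaves of 24 and 48 HAI and 14.9 and 20.3 CPM in infested leaves of those times, although the highest 48 HAI mock library held 55.7 CPM. GLYMA03G31390, a gene of the C2H2 zinc-finger family, fell from 16.5, 24.2 and 20.6 CPM to 3.54, 4.25 and 6.07 CPM (-2.13 ± 0.29, adjusted p = 0.0439 by edgeR). Its medians were 12.9 and 14.3 CPM in mock leaves of 24 and 48 HAI, and 20.5 and 4.65 CPM in the infested leaves. None of the 3 response differences between 96 and 48 HAI was called for these genes, with edgeR adjusted p-values of 0.331 for GLYMA05G23710, 0.123 for GLYMA07G06450 and 0.515 for GLYMA03G31390.

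**Figure D3:**
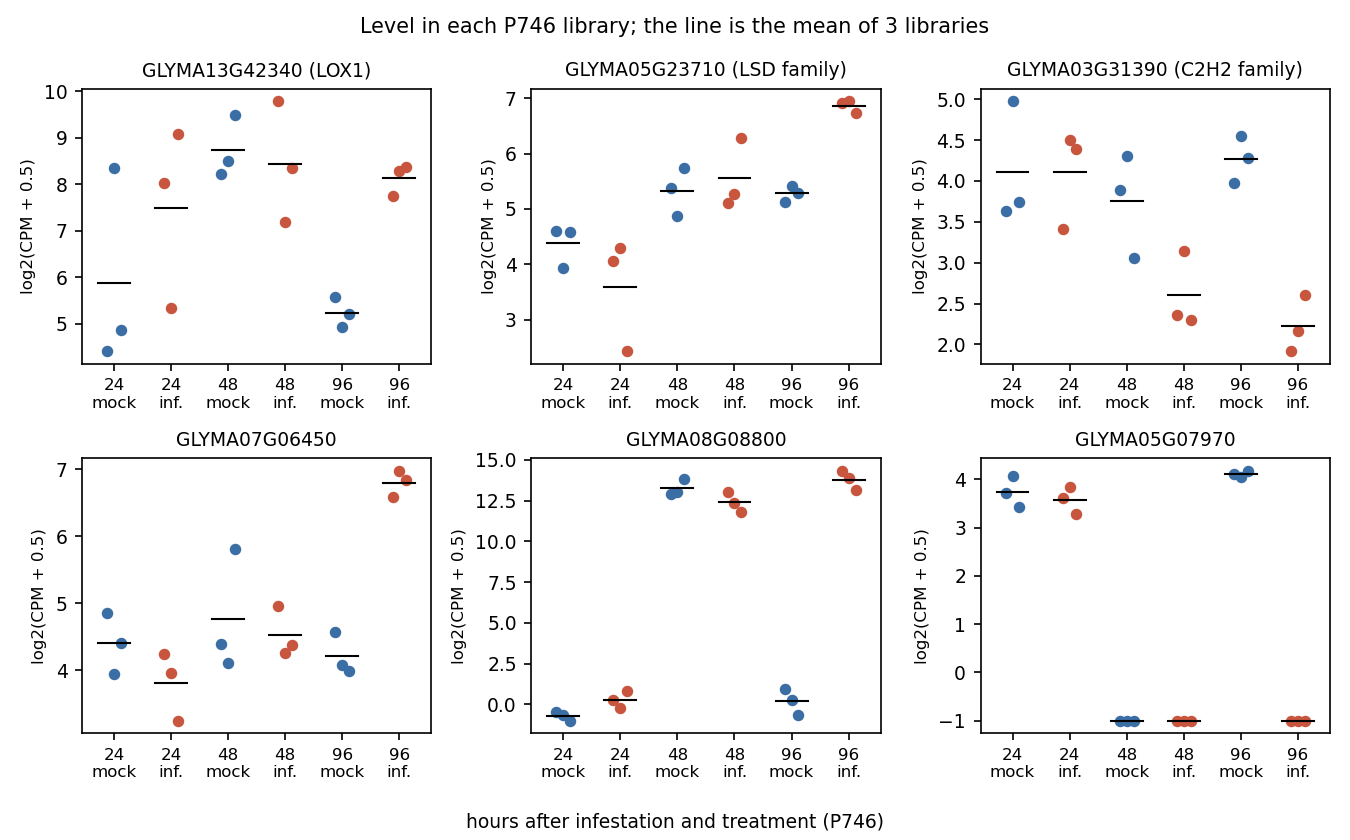
Level of 6 called genes, as log2(CPM + 0.5) on a scale fitted over all 54 libraries, in each P746 library at 24, 48 and 96 HAI (blue, mock; red, infested; black line, mean of the 3 log2 values). The 96 HAI infested libraries stand above all other groups for GLYMA05G23710 and GLYMA07G06450, whereas GLYMA08G08800 is also high and GLYMA05G07970 also at 0 in the 48 HAI libraries of both treatments.

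Among JA-related genes, 1 of 33 tested rose (0.32% of all tested genes did) and 0 fell (0.186%), 4 were higher and 5 lower at an unadjusted p under 0.05 (11.6% and 9.82%), and the median log2 fold change of the list was -0.13, against 0.03 over all tested genes. The study chose this list, the SA list and the transcription factor list among genes that changed in these samples, so their directions are not independent evidence. The gene that rose was GLYMA13G42340, a LOX1 lipoxygenase gene, at 51.1, 31.7 and 39.8 CPM in mock and 230.0, 334 and 357 CPM in infested leaves (log2 fold change 2.92 ± 0.30, adjusted p = 0.0314 by edgeR). The groups were far apart, yet uninfested leaves of 48 HAI had a median of 361 CPM and those of 24 HAI a median of 28.9 CPM with 1 library at 325 CPM. The call held without mock replicate 1 and was lost without any other single library, with edgeR adjusted p-values of 0.0536 to 0.1997 and log2 fold changes of 2.76 to 3.09.

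Other genes of JA synthesis had estimates on either side of 0 and were not called by edgeR. The LOX1 gene GLYMA07G00900 measured 530.2, 269 and 298 CPM in mock and 671, 1076 and 2015 CPM in infested leaves (adjusted p = 0.133), and the LOX1 gene GLYMA07G03910 measured 34.0, 9.71 and 6.34 CPM against 86.8, 385 and 44.5 CPM (0.143). Both pairs of groups were separate, as in 14.3% of all tested genes on that side, with a wide spread among the infested libraries. A further LOX1 gene, GLYMA10G29490, lay on the other side with 41.0, 49.2 and 38.0 CPM in mock and 7.30, 9.73 and 22.7 CPM in infested leaves (0.111), as did the LOX2 gene GLYMA11G13880 (log2 fold change -1.34, adjusted p = 0.172). The allene oxide cyclase gene AOC4, GLYMA02G11020, which acts after the lipoxygenase step, had 4.39, 7.99 and 11.5 CPM in mock and 1.56, 1.95 and 2.22 CPM in infested leaves (adjusted p = 0.0848 by edgeR). The acyl-CoA oxidase genes ACX2, GLYMA05G31390, and ACX3, GLYMA12G14060, which shorten the JA precursor in peroxisomes, had log2 fold changes of 2.59 and -0.56 (adjusted p = 0.149 and 0.151 by edgeR), and for ACX2 the groups overlapped. DESeq2 called 4 JA-related genes higher and 2 lower, where it called 5.07% and 3.77% of the genes to which it gave an adjusted p. The 4 were GLYMA13G42340, GLYMA07G00900, GLYMA07G03910 and ACX2 (adjusted p = 2.48e-18, 0.00631, 0.00333 and 0.0112 by DESeq2). The 2 were GLYMA10G29490 and AOC4 (0.00675 and 0.00127).

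The JAZ repressor genes gave no call, and several varied widely within the mock arm. JAZ2, GLYMA01G41290, measured 0.465, 151 and 101 CPM in mock and 19.6, 11.0 and 36.6 CPM in infested leaves. JAZ6, GLYMA07G04630, measured 7.78, 127 and 112 CPM in mock and 46.1, 14.2 and 73.0 CPM in infested leaves, and JAZ1, GLYMA13G17180, was at 3.59, 57.5 and 40.9 CPM and then at 39.2, 13.5 and 22.5 CPM. Mock replicate 1 was the lowest of all 6 libraries for each of these repressors. JAZ12, GLYMA09G09100, a gene the study had chosen for quantitative PCR, measured 70.0, 156 and 170 CPM in mock and 110, 67.8 and 114 CPM in infested leaves, again with overlap (adjusted p = 0.546 by edgeR). The transcription factor gene JIN1, GLYMA09G33730, which in Arabidopsis drives JA responses, had 34.6, 90.3 and 84.8 CPM in mock and 35.5, 30.1 and 37.9 CPM in infested leaves (0.189).

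Of 17 tested SA-related genes, 0 were called by edgeR at either sign, and their median log2 fold change was -0.63. At an unadjusted p under 0.05, 6 were lower and 1 higher in infested leaves, where 9.82% and 11.6% of all tested genes were, and DESeq2 called 5 lower and 1 higher, where it called 3.77% and 5.07% of the genes to which it gave an adjusted p. Phenylalanine ammonia-lyase opens the phenylpropanoid route to SA and to lignin and isoflavonoids. PAL2, GLYMA13G20800, measured 189, 339 and 295 CPM in mock and 89.7, 47.4 and 71.6 CPM in infested leaves (log2 fold change -1.97 ± 0.34, adjusted p = 0.0694 by edgeR and 9.07e-06 by DESeq2). PAL1, GLYMA10G06600, a gene the study also chose for quantitative PCR, measured 717, 995 and 982 CPM against 501, 269 and 262 CPM (-1.37 ± 0.37, adjusted p = 0.119 by edgeR and 0.00343 by DESeq2). All infested values of both genes were below all mock values, as in 14.6% of all tested genes, although neither gene was called by edgeR.

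The isochorismate synthase gene ICS1, GLYMA01G25690, of the other route to SA, stood on the opposite side, with 43.7, 9.76 and 14.7 CPM in mock and 76.3, 79.2 and 77.8 CPM in infested leaves (log2 fold change 1.79 ± 0.55, adjusted p = 0.146 by edgeR and 0.0218 by DESeq2). By edgeR the signalling genes were not called either. DESeq2 called GLYMA06G19890, GLYMA06G19920 and GLYMA08G00420 lower (adjusted p = 0.00227, 0.00611 and 0.00449 by DESeq2) but not GLYMA02G45260 (0.101). The EDS1 genes GLYMA06G19890 and GLYMA06G19920 had log2 fold changes of -1.14 ± 0.24 and -1.18 ± 0.27 (adjusted p = 0.0847 and 0.0956 by edgeR), the PAD4 gene GLYMA08G00420 one of -1.69 ± 0.40 (0.0988), and NPR1, GLYMA02G45260, one of -0.90 ± 0.31 (0.176). In each of these 4 genes all mock values were above all infested values, as in 14.6% of all tested genes. They were named for an unadjusted p under 0.05, so their separation is not further evidence. The other PAD4 gene, GLYMA04G38691, overlapped with 75.5, 98.6 and 67.0 CPM in mock and 97.1, 30.7 and 63.3 CPM in infested leaves.

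**Figure D4:**
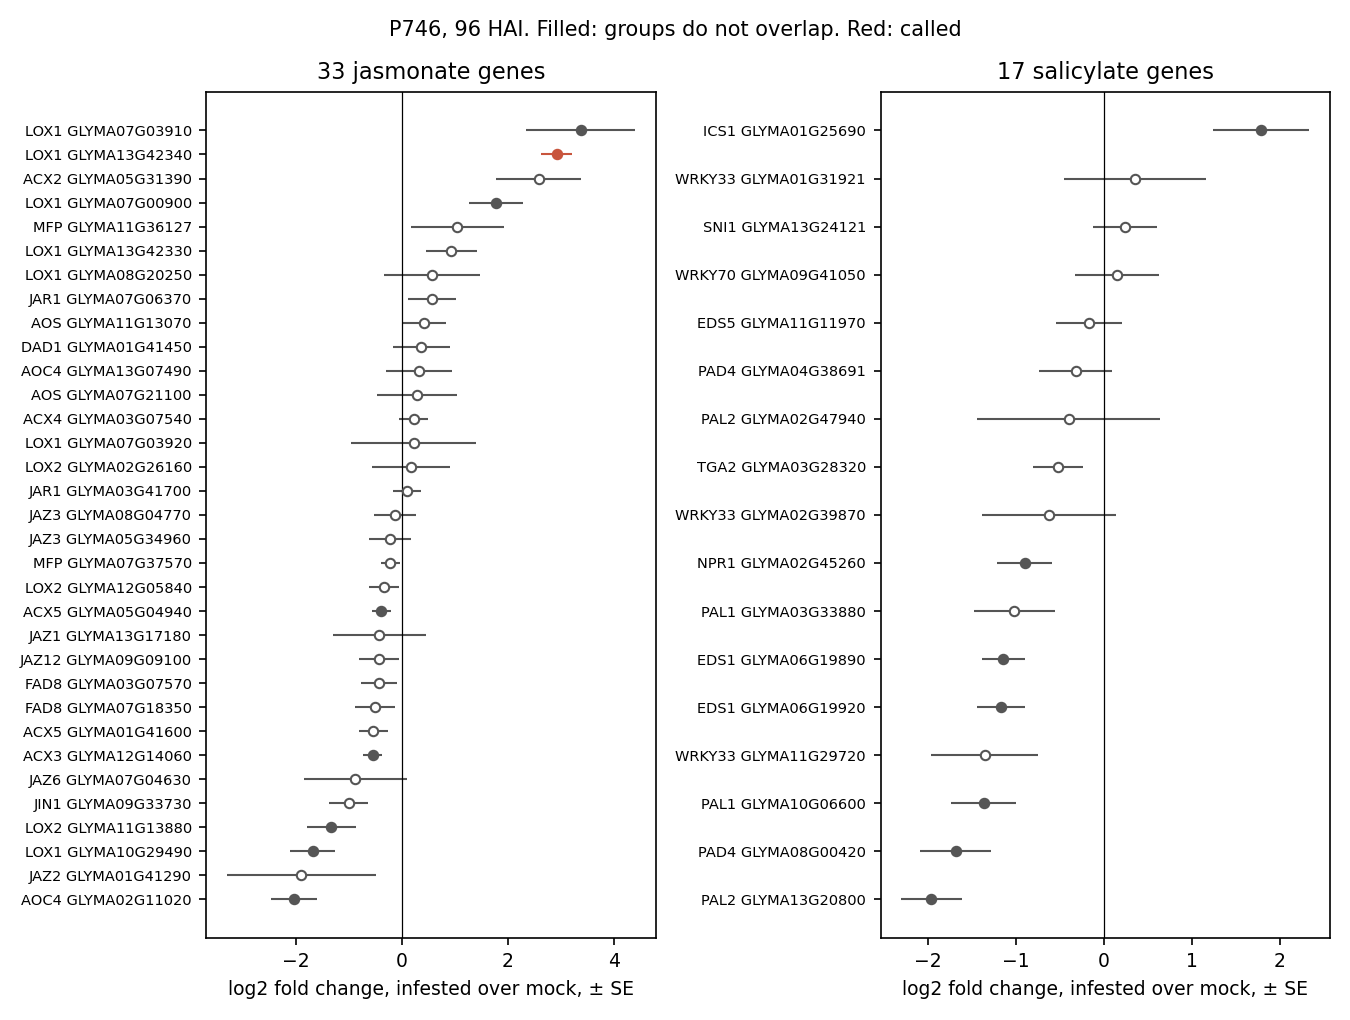
Log2 fold change of infested over mock leaves in P746 at 96 HAI, with its standard error, for the 33 tested JA-related and the 17 tested SA-related genes (filled points, the 3 infested and 3 mock values do not overlap; red, called by edgeR). GLYMA13G42340 is the called gene, and of the filled SA points ICS1 alone lies right of 0.

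Callose synthases, which lay down the glucan that can seal sieve plates, gave no call among 4 tested genes of 8 listed. All 4 estimates were below 0 with a median of -0.47, where 12015 of all 23094 tested genes were above 0. GLYMA06G44770 was the most separated, at 50.1, 59.2 and 57.2 CPM in mock and 29.1, 39.0 and 45.7 CPM in infested leaves (log2 fold change -0.54 ± 0.21, adjusted p = 0.212 by edgeR). Of the catalase genes, which encode enzymes that break down hydrogen peroxide, 2 of 3 were tested and neither was called, and the groups overlapped for GLYMA04G01920 and GLYMA06G02040 alike.

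Transcription factors were called about as often as other genes, with 2 higher and 1 lower among 560 tested, beside the 0.32% and 0.186% over all genes. Beside the LSD and C2H2 genes above, the third was GLYMA07G04721 of the C3H zinc-finger family, with 1 mock count in all and 3.34, 3.39 and 2.82 CPM in infested leaves. At an unadjusted p under 0.05, 11 of 52 tested WRKY genes were lower and 1 higher, where 9.82% and 11.6% of all tested genes were, and DESeq2 called 8 WRKY genes lower and 0 higher, beside 3.77% and 5.07% of all genes. This family regulates many defence genes, and its median log2 fold change was -0.50. Family medians lay on both sides of 0, with -0.49 for MYB, -0.55 for C2H2, 0.44 for bHLH and 0.59 for C2C2. Of 66 tested AP2/ERF genes, 5 were higher and 5 lower at an unadjusted p under 0.05. Picked out after its values were seen, the LBD family had 4 of 8 genes higher and 0 lower at that unadjusted p, with a median of 1.58. Some smaller families were as one-sided. Higher were 3 of 3 LSD and 2 of 3 CO-like genes, and lower were 2 of 4 NF-Y and 2 of 3 Nin-like genes. The WRKY11 gene GLYMA09G06980 and the MYB30 gene GLYMA03G00890, which the study had chosen for quantitative PCR, overlapped between the arms, with 26.9, 57.9 and 52.3 CPM against 81.1, 30.6 and 39.3 CPM for the former (adjusted p = 0.868 by edgeR) and 13.3, 32.7 and 40.6 CPM against 16.99, 15.3 and 25.3 CPM for the latter (0.460).

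Among called genes, 12 pairs lay at most 5 steps apart in identifier order. Of these, 6 moved in the same direction, 4 of them within the chromosome 13 interval, beside GLYMA03G14980 with GLYMA03G15130, both lower, and GLYMA07G08595 with GLYMA07G08605, both higher. The other 6 moved in opposite directions and are described because of it, after their values were seen. GLYMA05G07970 fell to 0 while its next neighbour GLYMA05G07960 rose from 15.1, 12.9 and 14.2 CPM to 41.6, 34.5 and 40.3 CPM, and the pair's summed level was 33.4, 29.8 and 33.2 CPM in mock and 41.6, 34.5 and 40.3 CPM in infested leaves, a ratio of the means of 1.21. GLYMA13G30154 and GLYMA13G30196 changed places in part, with sums of 107, 106 and 111 CPM against 82.5, 74.8 and 82.2 CPM, a ratio of 0.739. A sum over members chosen for opposite directions must change less than they do, so these ratios are given as values only. For GLYMA09G00320 with GLYMA09G00333, GLYMA01G42840 with GLYMA01G42860, GLYMA08G43266 with GLYMA08G43274 and GLYMA02G14740 with GLYMA02G14790 the ratios of the summed means were 0.710, 1.39, 1.86 and 3.19. How reads were shared out between such neighbours, and whether strand was used in counting, is not given in the sources used here, so the separate values of neighbouring genes may be uncertain.

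**Figure D5:**
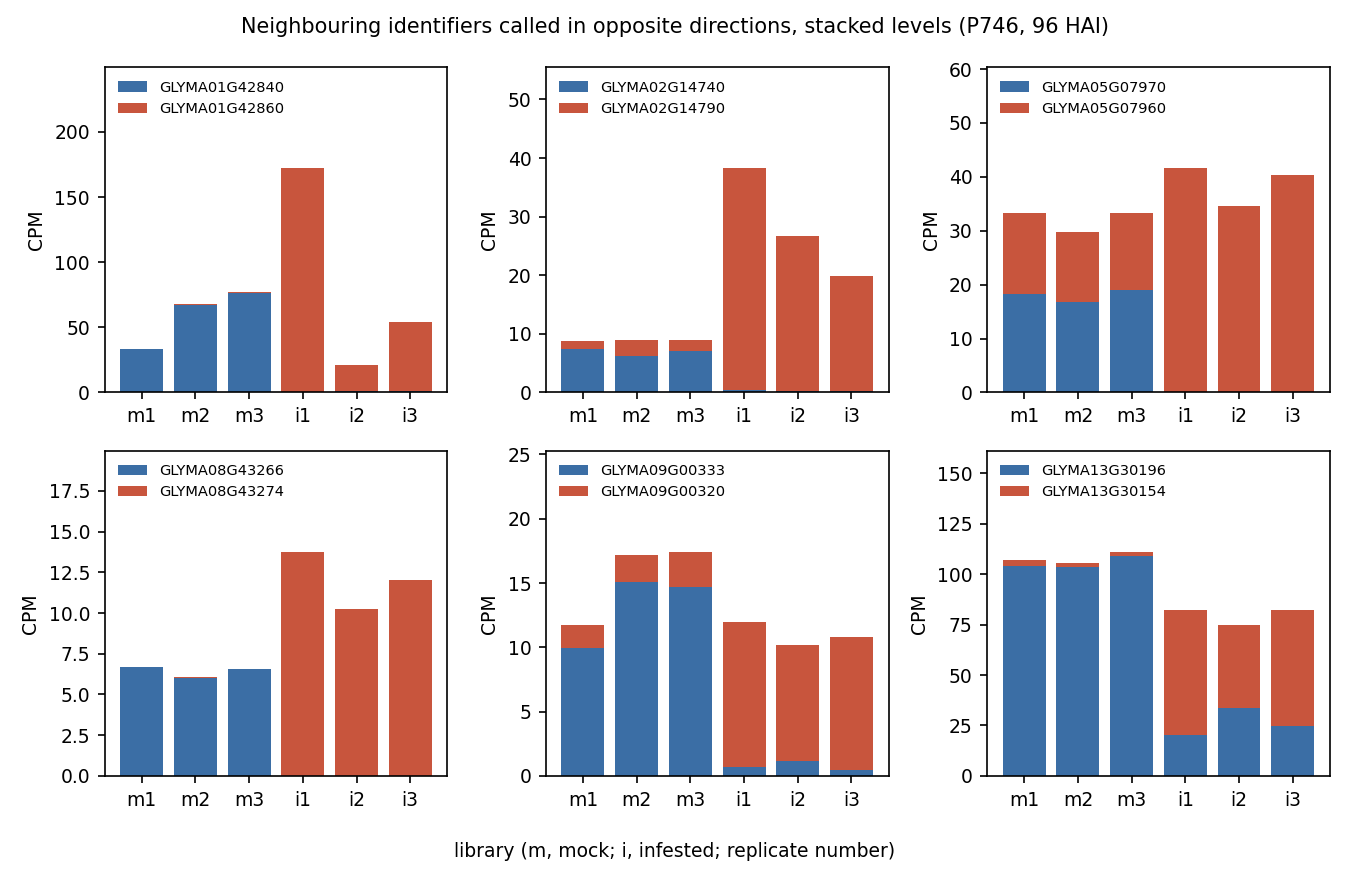
Stacked levels in CPM of the 6 pairs of neighbouring identifiers called in opposite directions, in the 3 mock (m) and 3 infested (i) libraries of P746 at 96 HAI (blue, the gene called lower; red, the gene called higher). The blue gene is the larger part of every mock bar and the smaller part of every infested bar, where GLYMA13G30196 keeps the most.

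The 3 most abundant genes tested did not pass the test. GLYMA05G25810 measured 15517, 7889 and 7273 CPM in mock and 32915, 17804 and 17213 CPM in infested leaves (log2 fold change 1.16 ± 0.74, adjusted p = 0.403 by edgeR). GLYMA13G12170 and GLYMA13G07610 overlapped between the arms.

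At 96 HAI the other genotypes, in separate libraries, were compared in the same way. In P203, 1655 of 23208 tested genes were called (7.13%), and 69 of the 117 P746 genes were among them with the same sign, which is 59.0% of the P746 list and 4.17% of the P203 list. In Dongnong47, 383 of 22775 were called (1.68%), and 60 of the 117 were among them with the same sign, 51.3% of the P746 list and 15.7% of the Dongnong47 list. The libraries labelled Dongnong47 infested were unlike each other, since replicate 1 held the Dongnong47 level at 7.06% of the genes that separated Dongnong47 from P203, and replicates 2 and 3 at 90.6 and 89.4%. Without that replicate, a choice made after seeing the data, 8 of 23524 genes were called by edgeR (0.034%, and 6254 at an unadjusted p under 0.05), of which 5 were among the 117. GLYMA08G08800, for example, had medians of 0.149 CPM in mock and 4921 CPM in infested P203 leaves, and of 0.251 and 14209 CPM in Dongnong47. Aphids and the set of libraries cannot be told apart there either.

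The difference in response between the genotype labels was tested directly. The libraries labelled P746 mock held the P203 level at 96.5 to 98.8% of the genes that separated P203 from P746. The contrast with P203 therefore cannot decide whether the genotypes respond differently. No interaction between genotype and infestation was called by edgeR, either for P746 against P203 (0 of 24396 genes, 3302 at an unadjusted p under 0.05, and 491 by DESeq2) or for P746 against Dongnong47 (0 of 24324, 667 and 20), and edgeR also called 0 in the latter without infested replicate 1 of Dongnong47. The lowest adjusted p against P203 belonged to GLYMA12G34420, at 0.220. This gene measured 17.7, 17.3 and 16.0 CPM in mock and 66.4, 44.3 and 59.2 CPM in infested P746 leaves, while in P203 its median was 15.4 CPM in mock and 11.8 CPM in infested leaves, and the response was 2.23 ± 0.29 higher in P746 on the log2 scale. GLYMA07G06450 likewise had P203 medians of 14.8 and 21.4 CPM and Dongnong47 medians of 14.6 and 113.4 CPM, with a P746 minus P203 difference of 1.84 ± 0.43 (adjusted p = 0.322 by edgeR).

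At the earlier times edgeR called 0 of 22538 P746 genes at 48 HAI (2004 at an unadjusted p under 0.05) and 1 of 23703 at 24 HAI (0.00422%, and 3059 at an unadjusted p under 0.05). The infested libraries of those times were unlike each other on the genotype genes. At 24 HAI they held the P203 level at 97.6, 3.53 and 52.9% of the genes that separated P203 from P746, against 0% in the mock libraries that defined them. At 48 HAI infested replicate 3 held the Dongnong47 level at 81.2% of the genes that separated Dongnong47 from P203, and replicates 1 and 2 at 7.06 and 11.8%. Without that replicate 0 genes were called at 48 HAI (1823 at an unadjusted p under 0.05), and without any 1 infested library 0 at 24 HAI (1663 to 5277), so low counts there do not show that aphids left the leaves unchanged. The response at 96 HAI differed from that at 48 HAI by the interaction test in 31 of 24461 genes (0.127%), of which 30 were more positive at 96 HAI, and 24 of the 31 were among the 117. Without infested replicate 3 of 48 HAI the interaction count was 24 genes, and without replicate 1 of that group it was 10. GLYMA13G30154 was one of them, with a difference of 4.57 ± 0.36 on the log2 scale (adjusted p = 0.000528 by edgeR). Its median level at 48 HAI was 49.8 CPM in mock and 42.6 CPM in infested leaves, both close to the infested leaves of 96 HAI.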

How the data were processed

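The deposited files hold estimated counts per locus, which the authors derived by trimming reads, mapping them to the soybean reference genome with HISAT2 and quantifying with StringTie. The submitters' processing notes also name CASAVA 1.8 and Bowtie. Loci without a value were taken as 0, and the estimated counts were rounded to whole numbers. The 3 infested and 3 mock libraries of P746 at 96 HAI were compared over genes whose identifiers place them on chromosomes 1 to 13, in an unpaired fit with edgeR 4.0.16 (R 4.3.3) after its expression filter (minimum count 10, minimum total 15), with TMM factors over the genes fitted and Benjamini-Hochberg adjustment. DESeq2 1.42.0, the tool of the study, other scalings and filters, a replicate block and leaving out each library were alternatives. The same fit served the interactions (group means, 12 libraries) and the other genotypes and times. The standard errors given with edgeR's log2 fold changes are approximate. Each was derived as the size of the log2 fold change over the square root of the test's F statistic. Plots were drawn with matplotlib 3.10.9.

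The members and gene lists were chosen with earlier results of these data known. Genes are named by these rules: among called genes with separate groups and a mean of at least 2 CPM, the 12 highest and 12 lowest log2 fold changes and the 5 lowest adjusted p-values in each direction; called genes in the study's lists; its quantitative PCR genes; listed hormone, callose synthase or catalase genes with an unadjusted p under 0.05; and the 3 most abundant genes. Others are said to be picked after their values were seen, or stand as members of a list. The study states 3 independent samples per treatment. Each library's chi-square per gene against its replicates was 34.5 to 126, so none was a copy. Each library held 17616740 to 19273325 counts, and the floor of 3 counts per library was 0.174 CPM in mock and 0.262 CPM in infested leaves. The test was checked on simulated counts. No sequence or coordinate is given, since the identifiers matched no entry of the reference table used here. There were 0 unused sample columns.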

Additional observations from a re-analysis of the deposited data

Results flagged for a closer look

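The response of P746 to aphids differed between 96 and 48 HAI by the interaction test (edgeR, Benjamini-Hochberg) in 31 genes. The 11 of these that are also among the genes named by rule had differences, 96 HAI minus 48 HAI on the log2 scale, of 15.07 for GLYMA08G08800, 11.88 for GLYMA07G18200, 11.59 for GLYMA02G06500, 10.60 for GLYMA01G42860, 10.04 for GLYMA10G13710, 9.71 for GLYMA02G15895, 9.34 for GLYMA03G05650, 7.70 for GLYMA05G24876, 6.72 for GLYMA13G37461, 4.57 for GLYMA13G30154 and -9.20 for GLYMA05G38110. Where 1 arm is at or near 0, as for all of these but GLYMA13G30154 and GLYMA13G37461, the size of the fitted difference depends on the prior count. The part of the set of libraries in these differences was not tested.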

How the results depend on the processing

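The 117 calls (63.2% of them higher) became 2299 with DESeq2, 415 (53.3% higher) with all loci in the fit, 207 (41.5% higher) with the total counts of chromosomes 1 to 13 as scaling, an alternative chosen after seeing the data, and between 0 and 94 when 1 library was left out, with 61.7 to 94.7% higher where any were called. Of the 94 without mock replicate 1, 39 were among the 117. With RLE factors, no filter, or a filter at a mean of 50 counts, 127, 133 and 90 genes were called. The median log2 change of 18902 well-covered genes was 0.01 under TMM, -0.26 under totals of chromosomes 1 to 13 and -0.49 under totals of all loci, so directions near 0 depend on scaling. With the replicate number as a block 1 gene was called (100% higher), and the interaction of 96 against 48 HAI gave 5. Deviations of same-numbered libraries correlated at -0.21, -0.40 and 0.34, which gave no clear sign that the numbers pair the samples. Deviations from the mean of 3 libraries are not independent of each other, so these values cannot decide it. Mock replicate 1 correlated at 0.42 with infested replicate 2, and mock replicate 2 at 0.30 with infested replicate 1. A pairing under other numbers was not tested. Interactions called against P203 rose from 0 to 491 with DESeq2 and ranged from 0 to 1 without 1 library, those against Dongnong47 rose from 0 to 20 with DESeq2, and those of 96 against 48 HAI went from 31 to 718 with DESeq2 and from 10 to 40 without 1 library. All 34 called genes named by rule kept their direction in every alternative, and 32 stayed past the threshold apart from the block and the left-out libraries. The exceptions were GLYMA05G23710 under totals of chromosomes 1 to 13 and GLYMA13G11992, with an adjusted p of 0.0569 by edgeR under the filter at 50 counts. The cause of these changes was not tested. With 3 libraries an arm and wide spread within the mock arm, genes that were not called cannot be taken as unchanged.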
